A study of Mus musculus with 12 samples.

Results

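The class difference described here set melanomagenic Nras alleles against non-melanomagenic ones in mouse embryonic fibroblasts (MEFs). The melanomagenic class held the 6 libraries of the 61R/R and 61H/H genotypes, the other class held the 6 libraries of 61P/P and 61Q/Q, and together they were all 12 libraries of the series. Classes were assigned by genotype alone, because melanomas arose in TN mice with the first pair of alleles and not in those with the second, and the question was which transcripts separate the classes. At codon 61 of Nras, 61R/R carried arginine and 61H/H histidine, whereas 61P/P had proline and 61Q/Q kept glutamine as in wild type. All 4 genotypes were on a C57BL/6 background, carried the melanocyte-specific Tyr::CreERT2 transgene and were homozygous for a knock-in Nras allele behind a stop cassette. The cassette was removed in every culture, 61Q/Q included, by an adenovirus that drives Cre from the CMV promoter, and RNA was taken 6 days later. The 61H/H, 61P/P and 61Q/Q lines had been made by CRISPR editing of 61R/R zygotes, so other differences between founder lines and the codon 61 allele cannot be told apart. Each genotype had 3 cultures, and the study states that its in vitro replicates were MEF lines taken from different embryos.

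NRAS is a small GTPase that switches on RAF kinases when bound to GTP, and RAF passes the signal through MEK to ERK. The residue at position 61 takes part in GTP hydrolysis, which turns the switch off. Active ERK induces genes that damp its own pathway, among them the phosphatase DUSP6, Sprouty and SPRED proteins and the EGF receptor inhibitor ERRFI1, and the transcripts of these genes are widely used as a readout of pathway output. In fibroblasts, sustained RAS signaling is also known for lowering matrix and contractile genes and for raising cyclin D1 and matrix-degrading enzymes.

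The codon read by each library was not examined, since counts per gene hold no sequence. Nras itself averaged 116 ± 8.37 CPM in 61R/R and 120.5 ± 4.64 CPM in 61H/H, against 98.8 ± 10.1 CPM in 61P/P and 98.8 ± 5.23 CPM in 61Q/Q (CPM are TMM-scaled counts relative to library size, SD, n = 3 cultures each). The class log2 fold change of Nras was 0.26 ± 0.06 (SE, adjusted p = 0.00943), and 1 of its 4 genotype pairs passed.

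Library totals ran from 81602506 to 92179519 counts in the melanomagenic class and from 73222911 to 86641284 counts in the other class. Rn45s, the ribosomal RNA precursor, took 11.3% to 13.9% of counts in the melanomagenic class and 8.89% to 12.3% in the other class. The 12 fibroblast markers tested summed to between 22194 and 38568 CPM in the melanomagenic class and to between 34291 and 63063 CPM in the other class, and 5 of them were lower and 3 higher between classes. Of 10 melanocyte markers, 7 were too low to test, and Tyr, the pigment enzyme tyrosinase, did not exceed 0.0225 CPM in any melanomagenic library and was at 0 in the others. Macrophage markers summed to between 149 and 311 CPM in the melanomagenic class and to between 151 and 433 CPM in the other class, with 290 to 433 CPM in 61Q/Q. Of 17 macrophage markers tested, 0 were higher and 3 were lower (17.6%) at the adjusted threshold (edgeR, 0 and 10 at an unadjusted p under 0.05). Over all genes tested, 14.2% were higher and 14.6% lower at that threshold. Cartilage markers were lower in 5 and higher in 0 of 12 tested (edgeR, 7 and 0 at an unadjusted p under 0.05), with sums of 68.9 to 99.5 CPM in the melanomagenic class and 87.9 to 266 CPM in the other class. Mesothelial markers were higher in 3 and lower in 2 of 9, with sums of 36.7 to 86.1 CPM in the melanomagenic class and 19.8 to 44.5 CPM in the other class. The part of these markers in the results below was not tested, and in bulk RNA fewer cells of a type cannot be told apart from less RNA per cell. Replicate 1 of 61R/R stood apart from the others of its class. Of the values of named genes that the closing section sets apart, 23 were of 61R/R replicate 1 and 2 of 61Q/Q replicate 2, each on the side of the opposite class. The 2 values of 61Q/Q replicate 2 were low (0.974 CPM of Rasgrp1 and 0.219 CPM of Lzts1). Among 192 groups tested they are too few to set that library apart by themselves. Counts are also given without both libraries, a choice made after seeing the data that itself favors more class calls.

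The class contrast was the mean of 61R/R and 61H/H minus the mean of 61P/P and 61Q/Q, in a single edgeR fit of 15759 genes with a mean for each genotype. The SE and p of this fit measure spread among cultures of a genotype and not between the genotypes of a class. A fit with genotype as the unit is given below. With thresholds of 0.05 on the adjusted p and 1.5-fold on the change, 1342 genes differed between classes (8.52% of genes tested). Of these, 513 were higher (3.26%) and 829 lower (5.26%) in the melanomagenic class. At the adjusted p alone, 2232 genes were higher (14.2%) and 2305 lower (14.6%). Every melanomagenic library lay above every other library in 618 genes (3.92%) and below every other library in 516 genes (3.27%). Without 61R/R replicate 1 and 61Q/Q replicate 2, 1999 genes passed the class rule. Both libraries were picked for values toward the opposite class, so more calls without them are favored by the choice.

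Since a class mean can be carried by one genotype, each of the 4 cross-class pairs (61R/R minus 61P/P, 61R/R minus 61Q/Q, 61H/H minus 61P/P and 61H/H minus 61Q/Q) was tested in the same fit. The pairs share libraries, so their calls are not independent of each other. Most of the 1342 class genes did not pass every pair. A set of 87 genes (0.552% of genes tested) passed the class rule and all 4 pairs, 66 of them higher and 21 lower in the melanomagenic class. Another 87 class genes passed 3 pairs, 648 passed 2, 313 passed 1 and 207 passed none. The most frequent pattern was a pass in both comparisons with 61Q/Q and in neither with 61P/P, which held for 585 genes, 204 higher and 381 lower in the melanomagenic class. The opposite pattern, both comparisons with 61P/P and neither with 61Q/Q, held for 28 genes. At the class thresholds 350 and 238 genes were called in 61R/R and 61H/H minus 61P/P, and 1229 and 2013 minus 61Q/Q. At an unadjusted p under 0.05 (edgeR) the counts were 3661 and 3878 against 61P/P, and 5678 and 6658 against 61Q/Q. A miss against 61P/P at the adjusted threshold, here and below, is therefore not an absence of difference. No class gene passed a cross-class pair against the direction of its class change.

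**Figure D1:**
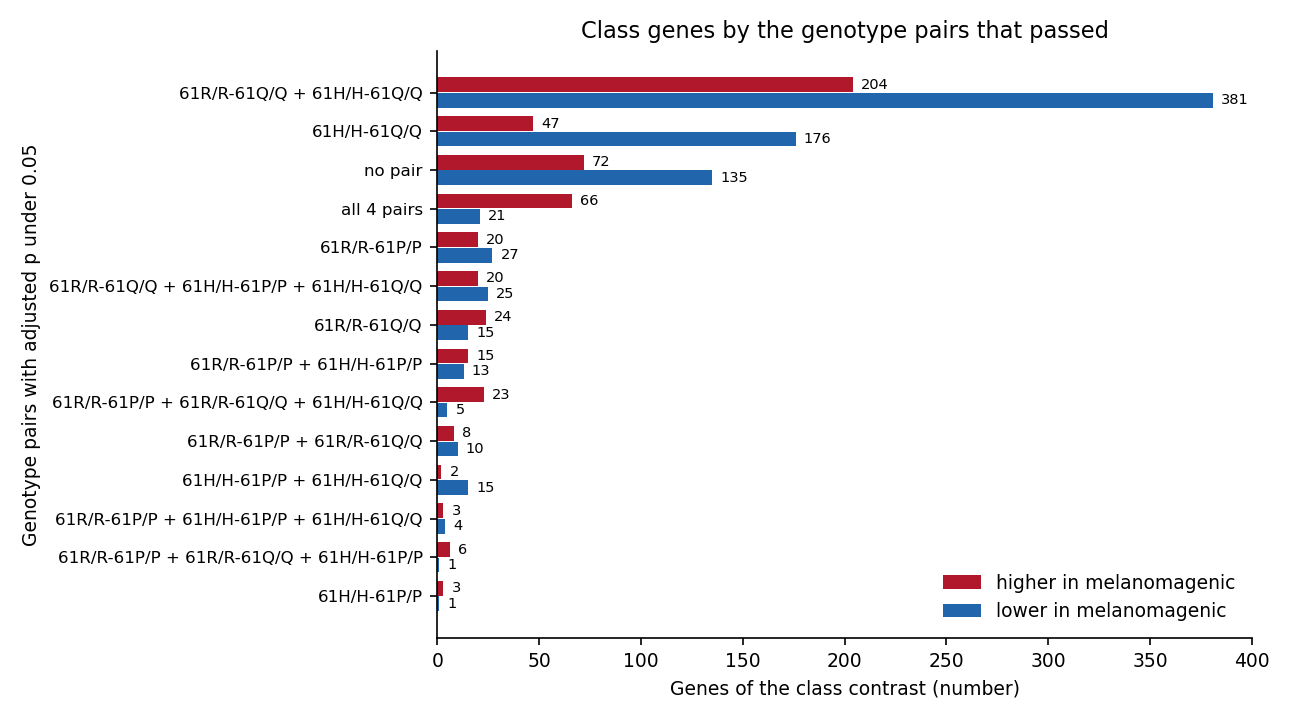
Number of class genes (x axis) by the genotype pairs in which they passed an adjusted p under 0.05 (y axis), with red bars for genes higher and blue bars for genes lower in the melanomagenic class. The longest bars, 204 and 381 genes, belong to genes that passed against 61Q/Q by both melanomagenic genotypes and against 61P/P by neither, and the genes that passed all 4 pairs were 66 and 21.

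Within classes the genotypes were unequal in spread. The 61R/R and 61H/H cultures differed in 0 genes at the class thresholds (edgeR, smallest adjusted p = 0.222, 778 genes at an unadjusted p under 0.05), while DESeq2 called 19 genes and limma-voom 0. The 61P/P and 61Q/Q cultures differed in 597 genes in edgeR, 1087 in DESeq2 and 608 in limma-voom. In 954 of the 1342 class genes the mean of 61P/P lay closer to the melanomagenic mean than that of 61Q/Q did, and in 939 the 61H/H mean lay farther out than the 61R/R mean. The 4 genotype means separated by class in 1256 class genes (93.6%), compared with 55.9% of all genes tested. All 12 libraries separated by class in 362 class genes (27.0%). As a median over the class genes, class accounted for 57.2% of the sum of squares of log2 CPM, genotype within class for 11.5% and cultures of a genotype for 25.6%. Over all genes tested the medians were 22.1%, 18.8% and 46.7%. In the 87 genes the medians were 80.9%, 2.20% and 15.5%, a description that the pair rule itself favors. The class rule likewise picked its 1342 genes by their class difference in these same libraries. It therefore favors separated means, separated libraries and a large class share, and the values for class genes are descriptions only.

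**Figure D2:**
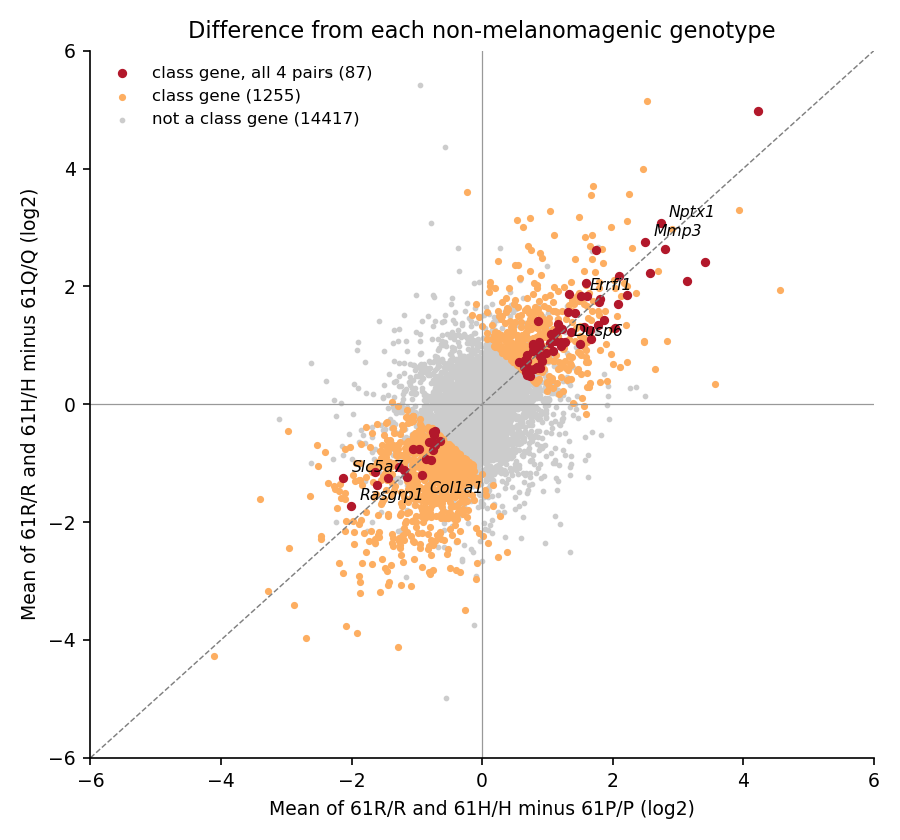
Mean of 61R/R and 61H/H minus 61P/P (x axis, log2) against the same mean minus 61Q/Q (y axis, log2) for 15759 genes, with the 87 genes of all 4 pairs in red, the other class genes in orange and all other genes in gray. Both axes share the melanomagenic libraries and the class rule uses both, so the diagonal trend is not a result. The dashed line marks equal differences, and in 954 of the 1342 class genes 61P/P lay closer to the melanomagenic mean than 61Q/Q did.

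Treating genotypes as the units of replication, or as a random block, left less. When counts were summed per genotype and 2 sums were compared with 2, edgeR called 0 genes, with 3120 at an unadjusted p under 0.05 and a smallest adjusted p of 0.0550. With genotype as a random block in limma-voom, 612 genes passed, all 87 genes of the 4 pairs among them. That fit shared a correlation of 0.159 between cultures of a genotype over all genes, and its units were still the cultures. Only the sums made genotype the unit. Block counts, here and for the lists below, are therefore not counts with genotypes as replicates. Leaving out a genotype gave 1239 class genes without 61R/R, 8 without 61H/H, 2145 without 61P/P and 600 without 61Q/Q. At an unadjusted p under 0.05 (edgeR) the counts were 5575, 4279, 7383 and 4580 in the same order. The fall to 8 without 61H/H is thus a count at the adjusted threshold and not an absence of differences. Without 61H/H, 0 members of the gene lists described below passed the adjusted p in either direction. The count of 87 also depended on single cultures. It was 411 without 61R/R replicate 1, 191 without 61Q/Q replicate 2, 601 without both and 115 without 61P/P replicate 3. It was 14, 4 and 5 without 61H/H replicate 1, 61H/H replicate 3 and 61P/P replicate 1. It was 0 without 61R/R replicate 2 or 3, 61H/H replicate 2, 61P/P replicate 2, or 61Q/Q replicate 1 or 3 (edgeR, with 314 to 462 genes at an unadjusted p under 0.05 in each pair). Of the 87 genes, 81 to 87 still passed the class rule when any single library was left out.

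The 12 largest rises among the genes that passed all 4 pairs ranged from 1.80 to 4.60 on the log2 scale, with Sh3bgrl2 lowest and Il5ra highest. Only genes with every melanomagenic library above every other library could be named here. The lack of overlap in these rises was therefore fixed by the rule and is not a result. Il5ra, the interleukin 5 receptor alpha chain, was read at 0.530, 1.82 and 0.933 CPM in 61R/R and at 2.11, 0.672 and 0.661 CPM in 61H/H, against 0.0489, 0.0543 and 0.0709 CPM in 61P/P and 0.0282, 0.0730 and 0 CPM in 61Q/Q. The groups did not overlap, and the class log2 fold change was 4.60 ± 0.56 (SE, adjusted p = 0.00289), at a level near 1 CPM even in the higher class. Nptx1, a neuronal pentraxin, was read at 35.8, 105 and 77.4 CPM in 61R/R and at 60.6, 80.9 and 67.2 CPM in 61H/H, against 7.68, 11.9 and 12.5 CPM in 61P/P and 4.10, 16.2 and 5.10 CPM in 61Q/Q. Its lowest melanomagenic culture was 61R/R replicate 1 and its highest culture of the other class was 61Q/Q replicate 2, and the class log2 fold change was 2.90 ± 0.36 (SE, adjusted p = 0.00289). Gchfr, the feedback regulator of GTP cyclohydrolase 1, was read at 8.27, 20.9 and 18.2 CPM in 61R/R and at 23.2, 17.9 and 17.2 CPM in 61H/H, against 1.55, 2.81 and 3.20 CPM in 61P/P and 1.89, 5.02 and 1.49 CPM in 61Q/Q. Again the classes did not overlap, and the log2 fold change was 2.72 ± 0.33 (SE, adjusted p = 0.00289).

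Itga2, the alpha 2 subunit of a collagen-binding integrin, had 7.92, 21.0 and 16.3 CPM in 61R/R and 19.4, 12.2 and 10.4 CPM in 61H/H, against 2.35, 3.53 and 4.34 CPM in 61P/P and 2.46, 4.86 and 2.24 CPM in 61Q/Q. Its class log2 fold change was 2.14 ± 0.29 (SE, adjusted p = 0.00326). Gap43, a growth cone protein, ran from 24.2 to 65.3 CPM (median 40.8) in the melanomagenic class and from 5.71 to 19.2 CPM (median 10.4) in the other class. Its log2 fold change was 2.03 ± 0.30 (SE, adjusted p = 0.00368). The hedgehog ligand gene Dhh ran from 2.83 to 6.05 CPM in the melanomagenic class and from 0.390 to 1.82 CPM in the other class. Sh3bgrl2 ran from 60.5 to 130 CPM in the melanomagenic class and from 20.5 to 43.8 CPM in the other class. The other named rises were Btn1a1, a butyrophilin of milk fat (log2 fold change 2.92), Calr4, a calreticulin paralog (2.62), Xirp2, an actin-binding repeat protein (2.40), and Btbd11 (1.82), of which the first 3 stayed under 3 CPM in every library. Il5ra, Btn1a1, Calr4 and Xirp2 met the minimum of 1 CPM only through the melanomagenic class, in which they were high.

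**Figure D3:**
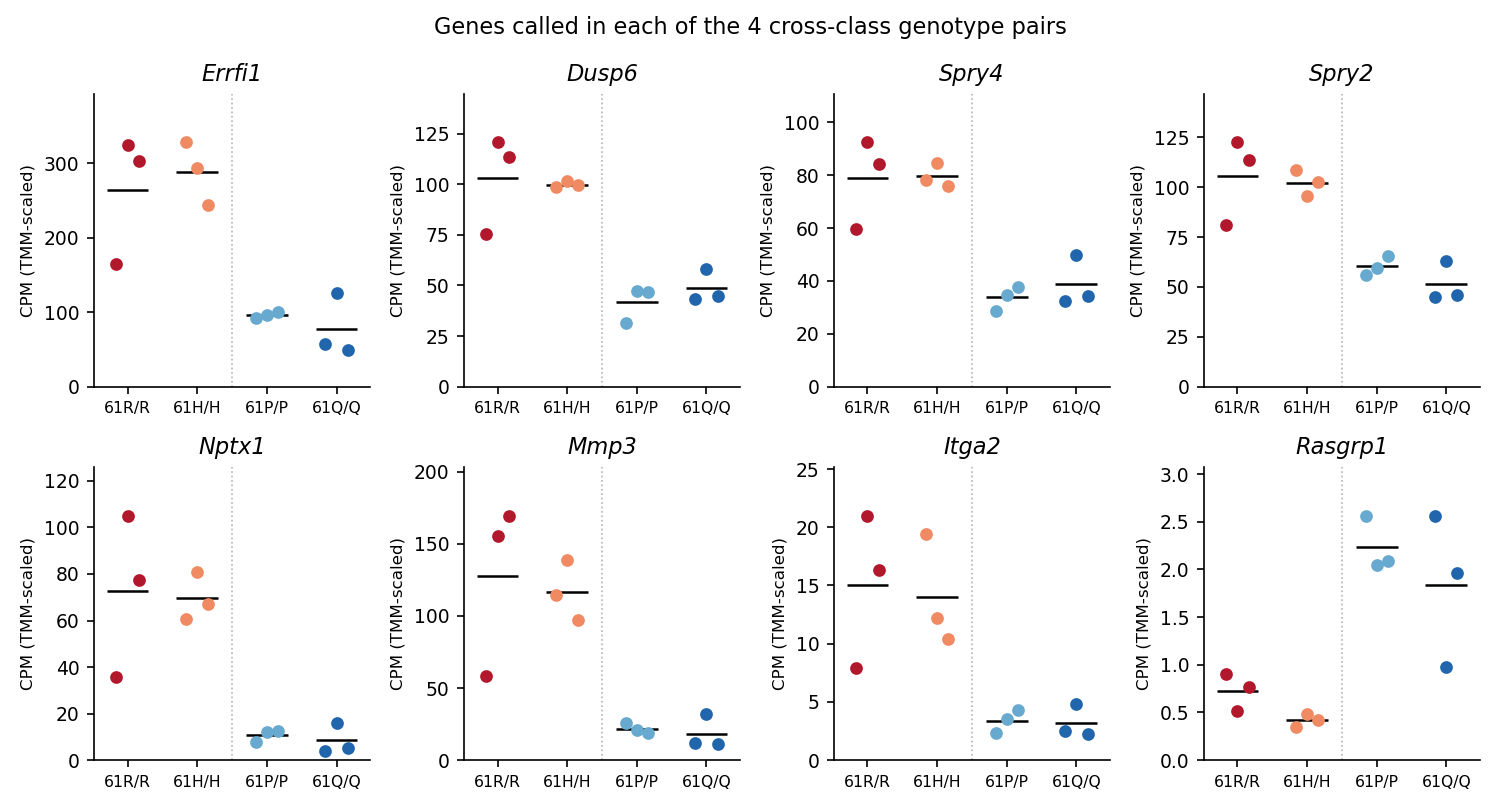
CPM (y axis, linear, TMM-scaled) in each culture (x axis, 61R/R and 61H/H left of the dotted line, 61P/P and 61Q/Q right of it) for 8 genes that passed all 4 genotype pairs, with points for cultures and a line for the mean of 3. In each panel the classes do not overlap, which the rule for the largest rises and falls required of Nptx1, Mmp3, Itga2 and Rasgrp1. The lowest 61R/R point of the 7 genes that rose is replicate 1.

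The 12 largest falls that passed all 4 pairs ranged from -1.87 (Rasgrp1) to -0.86 (Lgalsl) on the log2 scale. Lack of overlap between classes was again a condition for being named, so it is not a result in these falls. Rasgrp1, which encodes a GTP exchange factor for RAS, had 0.903, 0.517 and 0.766 CPM in 61R/R and 0.352, 0.487 and 0.420 CPM in 61H/H, against 2.56, 2.05 and 2.09 CPM in 61P/P and 2.56, 0.974 and 1.96 CPM in 61Q/Q. Replicate 2 of 61Q/Q lay closest to the melanomagenic cultures, and the class log2 fold change was -1.87 ± 0.24 (SE, adjusted p = 0.00289). Every melanomagenic library read Rasgrp1 under 1 CPM, so the gene met the minimum of 1 CPM only through the other class. Slc5a7, the choline transporter, had 10.6, 6.60 and 5.93 CPM in 61R/R and 10.7, 7.36 and 9.06 CPM in 61H/H, against 50.1, 35.0 and 24.1 CPM in 61P/P and 29.1, 11.2 and 19.5 CPM in 61Q/Q. Here 61P/P was the genotype farther from the melanomagenic class, with log2 fold changes of -2.24 for 61R/R minus 61P/P and -1.37 for 61R/R minus 61Q/Q. Cacna1h, a T-type calcium channel, ran from 4.53 to 13.6 CPM in the melanomagenic class and from 16.9 to 26.5 CPM in the other class (log2 fold change -1.49 ± 0.25, SE, adjusted p = 0.00419).

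Rcn1, a calcium-binding protein of the endoplasmic reticulum, had 228, 136 and 141 CPM in 61R/R and 129, 134 and 146 CPM in 61H/H, against 341, 347 and 315 CPM in 61P/P and 397, 261 and 415 CPM in 61Q/Q. The melanomagenic values lay within a narrow band but for 61R/R replicate 1, which was above it. The class log2 fold change was -1.19 ± 0.14 (SE, adjusted p = 0.00289). Rnd3, an atypical small GTPase, ran from 85.7 to 138 CPM in the melanomagenic class and from 158 to 231 CPM in the other class (log2 fold change -0.90 ± 0.14, SE, adjusted p = 0.00376). The other named falls were Aoc3, a membrane amine oxidase (-1.34), Adra1d, an alpha 1 adrenergic receptor (-1.17), and Slc24a3, a sodium, calcium and potassium exchanger (-1.15). They also included the secreted protein gene Nell2 (-1.06), Setbp1 (-0.91), the neuropeptide Y receptor gene Npy1r (-0.86) and Lgalsl (-0.86).

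Feedback inhibitors of the MAPK pathway were mostly higher in the melanomagenic class. Of 15 tested genes of this list, 10 were higher (66.7%) and 3 lower (20.0%) at the adjusted p, and 4 passed all 4 pairs. Of all genes tested, 14.2% were higher and 14.6% lower, and these shares are the background for the counts of each list below. The counts were 9 and 0 with genotype as a random block, and 6 and 0 without 61Q/Q. The median class log2 fold change of the list was 0.32, beside -0.0020 over all genes tested. In 7 of the 15 every melanomagenic library lay above every other library, as in 3.92% of all genes tested. Errfi1, which inhibits the EGF receptor, had 165, 324 and 303 CPM in 61R/R and 328, 294 and 244 CPM in 61H/H, against 92.1, 96.7 and 101 CPM in 61P/P and 57.0, 125 and 49.7 CPM in 61Q/Q. The class log2 fold change of Errfi1 was 1.68 ± 0.23 (SE, adjusted p = 0.0033). Dusp6, the cytoplasmic ERK phosphatase, had 75.6, 121 and 113 CPM in 61R/R and 98.5, 102 and 99.6 CPM in 61H/H, against 31.7, 47.4 and 47.0 CPM in 61P/P and 43.4, 58.3 and 44.9 CPM in 61Q/Q. Its log2 fold change was 1.16 ± 0.14 (SE, adjusted p = 0.00289), and the 4 pairs ran from 1.03 to 1.30.

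Sprouty genes split. Spry4 had 59.6, 92.4 and 84.4 CPM in 61R/R and 78.2, 84.5 and 76.0 CPM in 61H/H, against 28.8, 34.7 and 37.7 CPM in 61P/P and 32.2, 49.8 and 34.3 CPM in 61Q/Q. Spry2 had 80.9, 123 and 114 CPM in 61R/R and 109, 95.4 and 103 CPM in 61H/H, against 56.2, 59.4 and 65.6 CPM in 61P/P and 45.1, 63.0 and 46.0 CPM in 61Q/Q. Both passed all 4 pairs, with class log2 fold changes of 1.13 ± 0.13 and 0.90 ± 0.11 (SE, adjusted p = 0.00289 each). Spry1 moved the other way. Its means were 27.9 CPM in 61R/R and 18.9 CPM in 61H/H, against 28.8 CPM in 61P/P and 51.6 CPM in 61Q/Q, and its class log2 fold change of -0.75 ± 0.19 (SE, adjusted p = 0.0161) passed in the 2 comparisons with 61Q/Q alone.

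The other feedback genes changed less or in fewer pairs. Dusp5, a nuclear ERK phosphatase, averaged 26.4 CPM in 61R/R and 23.5 CPM in 61H/H, against 10.2 CPM in 61P/P and 16.2 CPM in 61Q/Q, with a log2 fold change of 0.95 ± 0.13 (SE, adjusted p = 0.0033) and 3 pairs passed. The Spred genes, whose proteins hold the RAS-inhibiting protein neurofibromin at the membrane, rose by 0.32 (Spred1), 0.32 (Spred2) and 0.48 (Spred3) on the log2 scale. Rasa2, a RAS GTPase-activating protein, rose by 0.30 and Dusp7 by 0.18. Dusp1, a stress-responsive phosphatase, fell by 0.34, and Lzts1 fell by 1.36 at levels that never exceeded 0.428 CPM. Dusp4 did not pass the class test, with a log2 fold change of -0.08 ± 0.11 (SE, adjusted p = 0.626). Its means were 34.6 CPM in 61R/R and 25.0 CPM in 61H/H, against 20.9 CPM in 61P/P and 46.2 CPM in 61Q/Q, so both melanomagenic means lay between those of the other genotypes. Dusp2 had a log2 fold change of -0.65 ± 0.37 (SE, adjusted p = 0.207) at no more than 0.538 CPM. Calls on Dusp7 and Lzts1 did not hold with every single library left out, with adjusted p of up to 0.0841 and 0.0850.

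Promoters of Dusp6 and Spry2 are shown because these feedback inhibitors were among the 4 of their list that passed all 4 pairs. Each is the RefSeq window of 300 bases around the gene start, 50 of them after it, on GRCm38.p6, written 5′ to 3′ on the strand of the gene. Capitals mark a match to any of 5 motifs searched on both strands, namely AP-1 (TGANTCA), CRE (TGACGTCA), ETS (CCGGAA), E-box (CACGTG) and the CArG box.
Dusp6, chr10:99262981-99263280, plus strand: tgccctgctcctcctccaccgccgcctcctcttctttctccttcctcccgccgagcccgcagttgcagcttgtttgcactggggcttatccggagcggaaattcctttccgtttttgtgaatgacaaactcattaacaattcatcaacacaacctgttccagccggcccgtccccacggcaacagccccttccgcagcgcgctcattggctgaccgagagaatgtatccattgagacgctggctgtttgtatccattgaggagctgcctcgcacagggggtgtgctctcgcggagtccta
Spry2, chr14:105896770-105897069, minus strand: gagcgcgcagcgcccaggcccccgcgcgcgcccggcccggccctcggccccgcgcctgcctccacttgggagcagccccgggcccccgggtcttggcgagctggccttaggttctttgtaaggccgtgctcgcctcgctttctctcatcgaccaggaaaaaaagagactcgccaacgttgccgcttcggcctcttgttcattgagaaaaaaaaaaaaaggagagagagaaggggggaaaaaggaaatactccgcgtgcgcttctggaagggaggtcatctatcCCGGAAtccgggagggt
Spry2 held an ETS match 33 bases after the gene start, and Dusp6 held none of the 5 in this window. The ETS letters were in 15.2% of 27025 promoters, 1 per gene symbol. Among the 64 of the 87 genes with a promoter in the table, 10 held ETS letters (15.6%, against 25.6% of the 11667 promoters of genes tested). An E-box was in 5 (7.81%, against 7.24% of all and 9.74% of tested promoters), a CArG box in 1 (1.56%, against 1.57% and 1.32%) and the CRE letters in 0 (against 1.88% and 3.11%). AP-1 letters were in 9 of the 64 (14.1%), against 7.93% of all promoters and 5.56% of those of genes tested. The 9 genes were Mmp3, Mmp1b, Il5ra, Xirp2, Procr, Pak6, Rbm38, Npy1r and Dock4, all but Npy1r higher in the melanomagenic class. These shares are descriptions and were not tested.

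Transcription factor genes that respond to ERK were higher in part. Of 21 tested, 10 were higher (47.6%, beside 14.2% of all genes) and 3 lower (14.3%, beside 14.6%). The median class log2 fold change was 0.06, and the counts were 8 and 0 with genotype as a random block. Fosb, which encodes an AP-1 subunit, had 7.18, 9.88 and 9.74 CPM in 61R/R and 9.91, 9.98 and 7.99 CPM in 61H/H, against 2.69, 3.76 and 5.18 CPM in 61P/P and 2.60, 5.45 and 3.24 CPM in 61Q/Q. The classes did not overlap, all 4 pairs passed, and the log2 fold change was 1.25 ± 0.20 (SE, adjusted p = 0.00382). Phlda1 also passed all 4 pairs but stayed under 1.5-fold (log2 fold change 0.51 ± 0.06, SE, adjusted p = 0.00289). The ETS factor genes Etv1 and Etv5 rose as a class but passed against 61Q/Q alone. Etv1 averaged 25.0 CPM in 61R/R and 26.2 CPM in 61H/H, against 18.1 CPM in 61P/P and 9.74 CPM in 61Q/Q, and 61P/P minus 61Q/Q was itself 0.89 on the log2 scale (adjusted p = 0.031). Etv5 averaged 79.7 CPM in 61R/R and 80.3 CPM in 61H/H, against 67.7 CPM in 61P/P and 46.0 CPM in 61Q/Q.

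RAS and RAF family transcripts changed by small amounts. Of 11 tested, 2 were higher (Nras and Rras2, 18.2%) and 3 lower (27.3%), beside 14.2% and 14.6% of all genes. Rras2, a RAS relative, ran from 99.2 to 108 CPM in the melanomagenic class and from 69.3 to 95.9 CPM in the other class, passed all 4 pairs and had a log2 fold change of 0.39 ± 0.05 (SE, adjusted p = 0.00326). Braf and Mras fell by 0.39 each on the log2 scale. Of 17 exchange factors and GTPase-activating genes for RAS, 3 were higher and 5 lower. These are shares of 17.6% and 29.4%, beside 14.2% and 14.6% of all genes. Rasa1, which turns RAS off, rose by 0.61 ± 0.14 (SE, adjusted p = 0.00951) without overlap of libraries, Dab2ip fell by 0.27, and Rasgrp1, described above, was the list's only member to pass all 4 pairs.

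Matrix-degrading enzymes and their inhibitors moved both ways, 6 of 24 up (25.0%, beside 14.2% of all genes) and 7 down (29.2%, beside 14.6%). Mmp3 and Plau passed all 4 pairs. The counts were 4 and 2 with genotype as a random block, and 6 and 1 without 61Q/Q. Mmp3, stromelysin 1, had 58.1, 155 and 169 CPM in 61R/R and 114, 139 and 97.5 CPM in 61H/H, against 25.6, 20.8 and 18.6 CPM in 61P/P and 11.6, 31.7 and 11.2 CPM in 61Q/Q. Its lowest melanomagenic value, in 61R/R replicate 1, was still above the highest of the other class, in 61Q/Q replicate 2, and the log2 fold change was 2.62 ± 0.32 (SE, adjusted p = 0.00289). The Mmp3 promoter, chosen after its values were seen, held an AP-1 match, in capitals, starting 46 bases before the gene start.
Mmp3, chr9:7445572-7445871, plus strand: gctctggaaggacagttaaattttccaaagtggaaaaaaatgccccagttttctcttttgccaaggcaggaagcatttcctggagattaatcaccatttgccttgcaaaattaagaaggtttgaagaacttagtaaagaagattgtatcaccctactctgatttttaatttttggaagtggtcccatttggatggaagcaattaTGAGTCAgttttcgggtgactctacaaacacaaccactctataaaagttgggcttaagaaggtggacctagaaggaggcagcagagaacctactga
Plau, the urokinase plasminogen activator, ran from 180 to 305 CPM in the melanomagenic class and from 88.0 to 144 CPM in the other class (log2 fold change 1.10 ± 0.14, SE, adjusted p = 0.00298). Serpinb2, a plasminogen activator inhibitor, rose by 1.63 ± 0.25 (SE, adjusted p = 0.00368) and passed 3 pairs. Mmp13, a collagenase, was a class gene in which 61P/P stood alone. It averaged 11.7 CPM in 61R/R and 9.84 CPM in 61H/H, against 3.72 CPM in 61P/P and 9.90 CPM in 61Q/Q, and it passed in both comparisons with 61P/P and in neither with 61Q/Q.

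Most matrix and contractile genes of the lists fell, and 1 of them passed all 4 pairs. Of 23 collagens tested, 17 were lower and 0 higher (edgeR, 0 higher at an unadjusted p under 0.05), and 0 passed all 4 pairs. The median class log2 fold change of the list was -0.88. Medians taken for each pair were -0.53 and -0.77 for 61R/R and 61H/H minus 61P/P and -0.90 and -1.14 for 61R/R and 61H/H minus 61Q/Q. The count was 12 with genotype as a random block and 6 without 61Q/Q in the fit. Col1a1, the alpha 1 chain of type I collagen, had 11142, 4379 and 4777 CPM in 61R/R and 4119, 4360 and 5078 CPM in 61H/H, against 12671, 10144 and 9036 CPM in 61P/P and 16162, 14023 and 20735 CPM in 61Q/Q. Replicate 1 of 61R/R lay among the 61P/P cultures and the other 5 melanomagenic cultures lay below both. The class log2 fold change of Col1a1 was -1.28 ± 0.22 (SE, adjusted p = 0.00434). Col8a2, a short-chain collagen, showed no overlap, with 2.43 to 7.45 CPM in the melanomagenic class and 8.70 to 27.7 CPM in the other class, and passed 3 pairs (log2 fold change -2.02 ± 0.32, SE, adjusted p = 0.00376). Col3a1 and Col5a2 fell by 1.11 and 1.07 on the log2 scale.

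**Figure D4:**
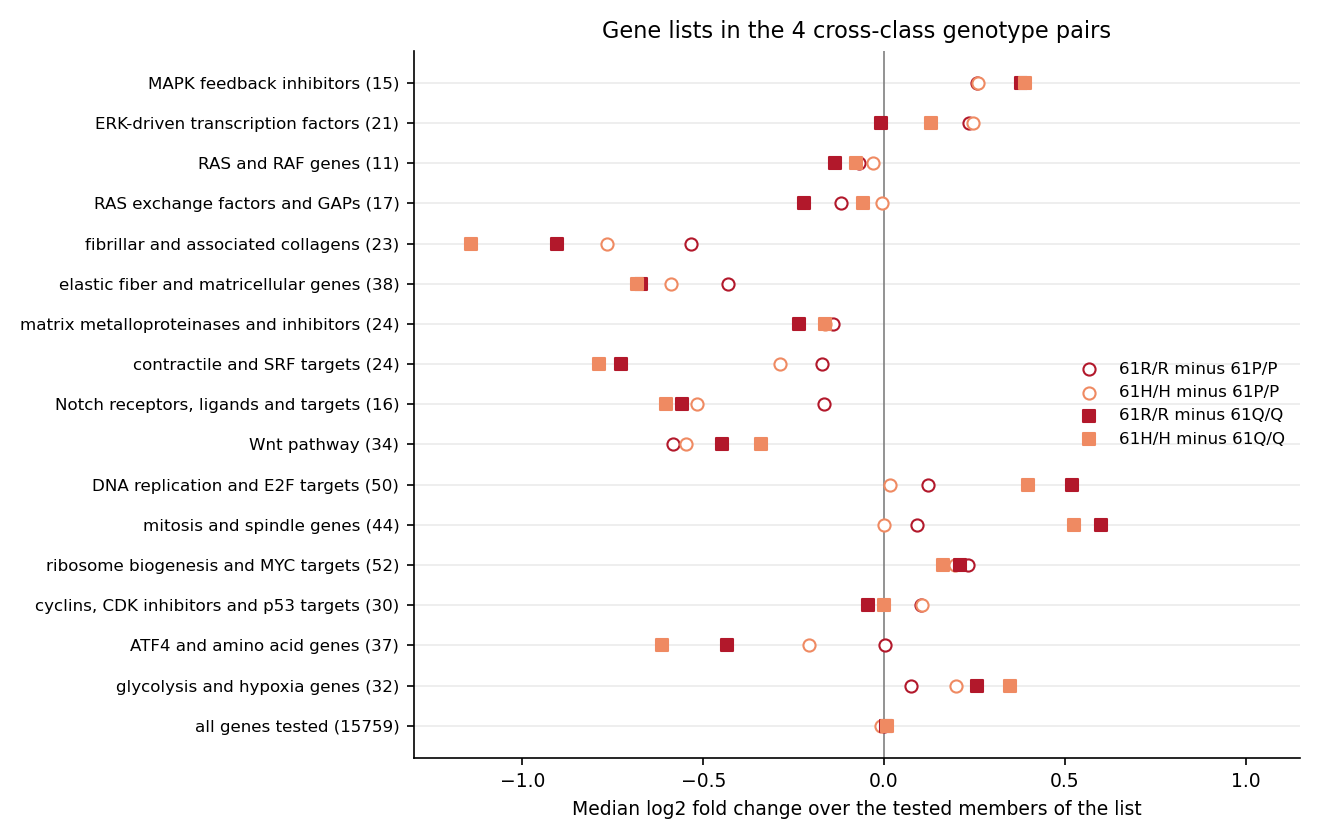
Median log2 fold change (x axis) over the tested members of each gene list (y axis, number tested in brackets) in the 4 cross-class pairs, with open circles for differences from 61P/P, filled squares for differences from 61Q/Q, dark red for 61R/R and orange for 61H/H. DNA replication and mitosis lists lay at 0.00 to 0.12 against 61P/P and at 0.40 to 0.60 against 61Q/Q, whereas MAPK feedback inhibitors lay at 0.26 against 61P/P and at 0.38 to 0.39 against 61Q/Q.

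Of 38 elastic fiber and matricellular genes, 26 were lower and 0 higher (edgeR, 3 higher at an unadjusted p under 0.05), with a median of -0.65. The count was 14 with genotype as a random block and 12 without 61Q/Q. Emilin1, an elastic fiber glycoprotein, was the member that passed all 4 pairs, with 138 to 185 CPM in the melanomagenic class and 199 to 288 CPM in the other class (log2 fold change -0.63 ± 0.10, SE, adjusted p = 0.00389). Thbs1, thrombospondin 1, had 12171, 5046 and 6123 CPM in 61R/R and 6971, 6944 and 7237 CPM in 61H/H, against 17512, 15089 and 16402 CPM in 61P/P and 24868, 14392 and 21045 CPM in 61Q/Q. Its classes did not overlap and the log2 fold change was -1.29 ± 0.20 (SE, adjusted p = 0.00376), but the 2 comparisons with 61P/P missed the threshold (adjusted p = 0.062 and 0.051). The microfibril gene Fbn1 and the fibulin gene Fbln5 fell by 0.80 and 0.75 on the log2 scale.

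Contractile genes and other SRF targets were lower in 19 of 24 cases and higher in 0 (edgeR, 0 higher at an unadjusted p under 0.05). Their medians were -0.17 and -0.29 for 61R/R and 61H/H minus 61P/P and -0.73 and -0.79 for 61R/R and 61H/H minus 61Q/Q. With genotype as a random block 7 passed, and without 61Q/Q in the fit 0 passed. Mylk, the myosin light chain kinase, had 36.4, 15.3 and 14.7 CPM in 61R/R and 14.6, 11.8 and 17.9 CPM in 61H/H, against 46.6, 32.3 and 30.3 CPM in 61P/P and 62.5, 44.8 and 44.7 CPM in 61Q/Q. With 61R/R replicate 1 inside the range of 61P/P the classes overlapped, and the log2 fold change was -1.25 ± 0.23 (SE, adjusted p = 0.00498). Synpo2, an actin-bundling protein gene, averaged 6.34 CPM in 61R/R and 3.83 CPM in 61H/H, against 6.35 CPM in 61P/P and 13.6 CPM in 61Q/Q. Smtn and Csrp1 fell by 0.40 and 0.63 on the log2 scale and passed against 61Q/Q alone. Collagen, matrix and contractile counts without 61R/R replicate 1 and 61Q/Q replicate 2 were 19, 27 and 22 lower, though leaving these libraries out favors such calls.

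**Figure D5:**
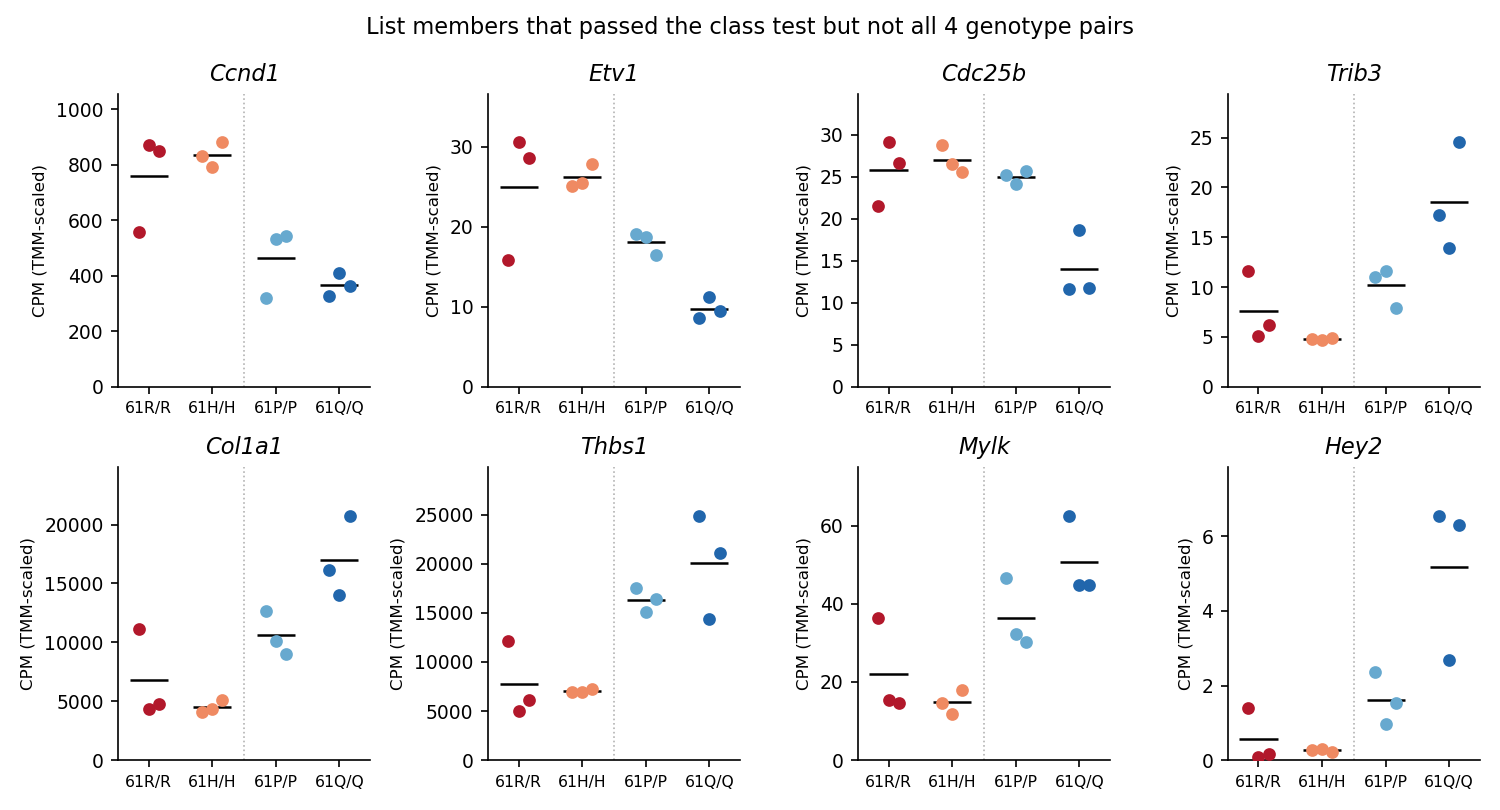
CPM (y axis, linear, TMM-scaled) in each culture (x axis, 61R/R and 61H/H left of the dotted line, 61P/P and 61Q/Q right of it) for 8 list members that passed the class test but not all 4 pairs, with points for cultures and a line for the mean of 3. Cdc25b shows 61P/P at the level of the melanomagenic cultures, and in Col1a1 and Mylk 61R/R replicate 1 lies within the 61P/P range.

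Notch and Wnt genes also fell more often than they rose. Of 16 Notch receptors, ligands and targets, 10 were lower and 1 higher, with a median of -0.56. The lower count was 4 with genotype as a random block, 2 without 61Q/Q, and 6 without 61R/R replicate 3 or without 61Q/Q replicate 3. Hey2, a Notch target, had 1.40, 0.0898 and 0.178 CPM in 61R/R and 0.282, 0.301 and 0.210 CPM in 61H/H, against 2.37, 0.964 and 1.53 CPM in 61P/P and 6.55, 2.69 and 6.31 CPM in 61Q/Q. The change was the largest of the list (log2 fold change -2.93 ± 0.55, SE, adjusted p = 0.00523), yet it passed against 61Q/Q alone, and 61R/R replicate 1 overlapped 61P/P. Maml2, a coactivator of Notch, and Lfng, which glycosylates Notch receptors, fell by 0.80 and 0.81 without overlap and passed 3 pairs each, and Hes1 fell by 0.63.

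Of 34 Wnt genes, 15 were lower and 3 higher. With genotype as a random block 5 were lower and 2 higher. Dkk2, a secreted Wnt antagonist, had 179, 362 and 406 CPM in 61R/R and 381, 360.5 and 363 CPM in 61H/H, against 79.6, 118 and 136 CPM in 61P/P and 59.5, 142 and 85.7 CPM in 61Q/Q. It passed all 4 pairs, with a log2 fold change of 1.72 ± 0.24 (SE, adjusted p = 0.0033). Frzb, another secreted antagonist, rose by 1.55 ± 0.26 (SE, adjusted p = 0.00419) without overlap. The Wnt agonist Rspo3 and the ligand Wnt4 fell by 1.01 and 1.69 and rested on different genotypes. Rspo3 averaged 8.27 CPM in 61R/R and 9.92 CPM in 61H/H, against 25.7 CPM in 61P/P and 12.9 CPM in 61Q/Q, and passed against 61P/P alone. Wnt4 ran from 0.788 to 2.30 CPM in the melanomagenic class and from 1.55 to 7.05 CPM in the other class, and it passed against 61Q/Q alone.

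Cell cycle genes were higher in the melanomagenic class in part, and in single pairs only against 61Q/Q. Of 50 DNA replication genes and E2F targets, 13 were higher and 0 lower (edgeR, 29 higher and 0 lower at an unadjusted p under 0.05), and 0 passed all 4 pairs. In single pairs, 32 and 20 of them were higher in 61R/R and 61H/H than in 61Q/Q, and 0 were higher in either than in 61P/P. Of 44 mitosis and spindle genes, 14 were higher and 0 lower (33 and 0 unadjusted). Here 35 and 27 were higher in 61R/R and 61H/H than in 61Q/Q, again with 0 higher in either than in 61P/P. Of all 15759 genes tested, 1486 and 2170 were higher in 61R/R and 61H/H than in 61Q/Q, and 292 and 231 than in 61P/P. Calls against 61P/P were thus few among all genes, and 0 in lists of this size is near that share. In 61P/P minus 61Q/Q, 5 of the 50 and 6 of the 44 were higher, beside 497 of all 15759 genes. Cdc25b, a phosphatase that starts mitosis, had 21.5, 29.1 and 26.6 CPM in 61R/R and 28.8, 26.5 and 25.6 CPM in 61H/H, against 25.2, 24.1 and 25.7 CPM in 61P/P and 11.7, 18.7 and 11.8 CPM in 61Q/Q. The 61P/P values lay inside the melanomagenic range, and the 61P/P minus 61Q/Q log2 fold change was 0.83 (adjusted p = 0.024). The class counts of both lists changed with 61Q/Q replicate 2, without which they were 44 of 50 and 43 of 44. Without another single library they ran down to 5 and 1, and the replication count was 5 to 7 without 61R/R replicate 2 or 3, 61H/H replicate 1 or 2, 61P/P replicate 2, or 61Q/Q replicate 1 or 3. The mitosis count was 1 to 4 without any single library other than 61Q/Q replicate 2 and 61R/R replicate 1, where it was 43 and 15. The replication and mitosis counts were 1 and 0 with genotype as a random block, 33 and 38 without 61P/P, 3 and 1 without 61R/R, and 1 and 1 without 61Q/Q.

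E2f8, a repressor of the E2F family, was the only member of its list without overlap between classes. It had 35.2, 70.6 and 65.6 CPM in 61R/R and 38.7, 55.4 and 45.0 CPM in 61H/H, against 19.8, 25.0 and 26.3 CPM in 61P/P and 12.4, 26.4 and 12.8 CPM in 61Q/Q. The log2 fold change of E2f8 was 1.35 ± 0.22 (SE, adjusted p = 0.00407), and its comparisons with 61P/P missed the threshold (adjusted p = 0.0505 in 61R/R and 0.094 in 61H/H). The mismatch repair gene Msh6 rose by 0.37, and Pola2 of the DNA polymerase alpha complex rose by 0.36. Ect2, Anln and Bub1b, which act in cytokinesis and the spindle checkpoint, rose by 0.44, 0.39 and 0.47, and each lost its call in at least 1 fit with a library left out (largest adjusted p = 0.0731, 0.0790 and 0.0803).

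Of 30 cyclins, CDK inhibitors and p53 targets, 6 were higher (20.0%, beside 14.2% of all genes) and 2 lower (6.67%, beside 14.6%), with a median class log2 fold change of 0.02. Ccnd1, cyclin D1, had 559, 871 and 849 CPM in 61R/R and 833, 794 and 881 CPM in 61H/H, against 320, 531 and 544 CPM in 61P/P and 326, 409 and 363 CPM in 61Q/Q. The classes did not overlap and the log2 fold change was 0.95 ± 0.14 (SE, adjusted p = 0.00368), but the 2 comparisons with 61P/P missed the threshold (adjusted p = 0.077 and 0.052). Mdm2, the p53 antagonist and p53 target, ran from 307 to 399 CPM in the melanomagenic class and from 194 to 270 CPM in the other class and passed all 4 pairs (log2 fold change 0.59 ± 0.07, SE, adjusted p = 0.00289). The p53 targets Ccng1 and Bax rose by 0.24 and 0.22.

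Ribosome biogenesis genes and MYC targets changed by little. Of 52 tested, 28 were higher (53.8%) and 1 lower (1.92%), the median was 0.20, and the 4 pair medians ran from 0.16 to 0.23. In single pairs 8 of the 52 were higher in each comparison with 61Q/Q, and 1 and 0 in 61R/R and 61H/H minus 61P/P. Of all 15759 genes tested, 1486 and 2170 were higher in 61R/R and 61H/H than in 61Q/Q, and 292 and 231 than in 61P/P. The pair counts are therefore not read as a trait of the list. Hspd1, a mitochondrial chaperonin, averaged 493 CPM in 61R/R and 491 CPM in 61H/H, against 387 CPM in 61P/P and 391 CPM in 61Q/Q, and its classes did not overlap (log2 fold change 0.34 ± 0.07, SE, adjusted p = 0.00849). Npm1 (nucleophosmin) rose by 0.28, Utp20 by 0.29 and Noc4l by 0.37. The count was 7 with genotype as a random block, 8 without 61R/R and 15 without 61Q/Q. Without 1 library it ran from 12 to 39, with 14 and 12 without 61R/R replicates 2 and 3, 16 without 61H/H replicate 2, 18 without 61P/P replicate 2, and 15 and 17 without 61Q/Q replicates 1 and 3.

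Amino acid and glycolytic genes closed the set. Of 37 genes of the ATF4 and amino acid list, 26 were lower and 1 higher, with medians of 0.00 and -0.21 for 61R/R and 61H/H minus 61P/P and of -0.43 and -0.61 for 61R/R and 61H/H minus 61Q/Q. Pycr1, an enzyme of proline synthesis, fell by 0.79 ± 0.12 (SE, adjusted p = 0.00368) without overlap, and Aldh18a1 of the same route fell by 0.42. Trib3, a pseudokinase gene induced by ATF4, ran from 4.70 to 11.6 CPM in the melanomagenic class, with its highest value in 61R/R replicate 1, and from 7.92 to 24.5 CPM in the other class, and it passed against 61Q/Q alone. Atf5 fell by 0.98. With genotype as a random block 6 of the 37 were lower, and without 61Q/Q 3 were. Of 32 glycolysis and hypoxia genes, 15 were higher and 2 lower. Egln3, a prolyl hydroxylase of the hypoxia response, ran from 7.49 to 10.9 CPM in the melanomagenic class and from 3.30 to 6.10 CPM in the other class (log2 fold change 0.85 ± 0.16, SE, adjusted p = 0.00529). Adm and Ankrd37 rose by 0.67 and 1.09, whereas the phosphofructokinase gene Pfkp fell by 0.30 without overlap. With genotype as a random block 3 of the 32 were higher, as without 61Q/Q. The count was 7 without 61R/R replicate 2 or 3, 61H/H replicate 1, or 61Q/Q replicate 1 or 3, and 9 without 61H/H replicate 2.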

How the data were processed

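RNA was measured by ribosome-depleted, stranded RNA-seq. The authors' tools were STAR with mm10, Picard 2.17.11 and featureCounts, and the deposited table that was used holds raw counts per gene. A further deposited table, of counts divided by DESeq2 size factors, was not used. The strand setting of the counting is not given in the sources used here, so overlapping and antisense genes cannot be told apart. Of 24419 genes, 15759 passed edgeR's expression filter. Genes were fitted with edgeR 4.0.16 (R 4.3.3, quasi-likelihood test, TMM scaling) with a mean for each genotype, and p-values were Benjamini-Hochberg adjusted over all genes tested. List members were called at an adjusted p under 0.05. CPM are TMM-scaled. Alternatives used limma 3.58.1 and DESeq2 1.42.0, other scalings, filters and thresholds, blocks, and fits without a library or a genotype.

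Named genes were Nras, the 12 largest rises and falls that passed all 4 pairs without overlap of libraries at a mean of at least 1 CPM in the higher class, all MAPK feedback inhibitors and, for each described list, at most the 4 members of lowest p. Members and lists were chosen with earlier results of these data known. Some items that this rule names are not reported here.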

Additional observations from a re-analysis of the deposited data

Results flagged for a closer look

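Among the 96 named genes, 25 values stood far from the other cultures of their class by a gap test on 6 cultures, in 192 groups tested. Chance sets apart about 1 in 20 groups. The culture was 61R/R replicate 1 in 23 of the 25, each time on the side of the other class, and 61Q/Q replicate 2 in the other 2, on the side of the melanomagenic class.

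Replicate 1 of 61R/R was below the other 5 melanomagenic cultures in 7 genes. It had 8.27 CPM of Gchfr, 60.5 CPM of Sh3bgrl2, 35.5 CPM of Spred3, 15.8 CPM of Etv1, 179 CPM of Dkk2, 62.5 CPM of Msh6 and 559 CPM of Ccnd1. The other melanomagenic cultures ranged from 17.2 to 23.2 CPM in Gchfr and from 794 to 881 CPM in Ccnd1.

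It was above the others in 16 genes. In matrix genes it had 11142 CPM of Col1a1, where the others ranged from 4119 to 5078 CPM, 1928 CPM of Col3a1, 2257 CPM of Col5a2, 1995 CPM of Fbn1 and 433 CPM of Fbln5. In contractile genes it had 113 CPM of Smtn and 36.4 CPM of Mylk. In Notch and Wnt genes it had 45.2 CPM of Maml2, 30.7 CPM of Hes1 and 2.30 CPM of Wnt4. It also had 228 CPM of Rcn1, 41.5 CPM of Lgalsl, 67.7 CPM of Braf, 131 CPM of Aldh18a1, 101 CPM of Atf5 and 11.6 CPM of Trib3.

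Replicate 2 of 61Q/Q had 0.974 CPM of Rasgrp1, with the other cultures of its class at 1.96 to 2.56 CPM, and 0.219 CPM of Lzts1, with the others at 0.343 to 0.428 CPM.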

How the results depend on the processing

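Main values were 1342 class genes, 513 higher, 829 lower and 87 in all 4 pairs. With at least 1 CPM in all libraries the counts were 779, 280 and 499. With genotype as a random block they were 612, 296 and 316, and with counts summed per genotype 0, 0 and 0 in edgeR (3120 genes at an unadjusted p under 0.05). At the adjusted p alone they were 4537, 2232 and 2305, and in a test against 1.5-fold 36, 35 and 1. Without 61H/H they were 8, 8 and 0 (edgeR, 4279 genes at an unadjusted p under 0.05). They were 2145, 844 and 1301 without 61P/P, and 600, 292 and 308 without 61Q/Q (4580 genes unadjusted). Leaving out each library in turn gave 924 to 1704 class genes, 384 to 703 higher, 540 to 1042 lower and 0 to 411 in all 4 pairs. Without both 61R/R replicate 1 and 61Q/Q replicate 2, chosen after seeing the data, 809 genes were higher and 601 passed all 4 pairs. The count in all 4 pairs was 297 in DESeq2 and 52 with a block for embryo sex. The labels give no pairing of cultures across genotypes, and the sample titles of 61H/H, 61P/P and 61Q/Q carry other numbers than the replicates. Whether the replicate numbers pair the cultures was not settled by the values (correlations from -0.0778 to 0.344 over 18 same-number pairs, 6 of them over 0.1, with 7 of 12 cultures closest to their own number). The highest of these correlations was between 61P/P replicate 1 and 61Q/Q replicate 1, both female by Xist, so number and embryo sex were mixed there. With a replicate block 1348 class genes and 240 in all 4 pairs passed. The log2 fold change of Dusp4, which missed the threshold, turned positive without 61H/H (0.15), without 61Q/Q (0.50) and without 61P/P replicate 3, and ran from -0.16 to 0.022 over the fits without 1 library. The cause of these shifts was not tested.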
